A study of Homo sapiens with 4 samples.

Results

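Antisense transcripts are RNAs read from the strand opposite a named gene, and by convention they carry that gene's symbol with the suffix -AS and, in most cases, a number. They were chosen here from the gene symbols of the deposited tables: every symbol with this suffix except VIM-AS1, at 2 TPM (length-normalised transcript abundance, scaled to a fixed total per library) or more in at least 2 of the 4 libraries. Of 425 rows with the suffix, VIM-AS1 included, among 20226 listed genes, 195 passed, carrying 194 symbols because DHRS4-AS1 is listed for 2 genes. The other 229 stayed under the threshold, of which 81 reached 2 TPM in a single library. The measured levels therefore chose the members, and their levels are a description. Just inside the threshold, by the second highest of the 4 libraries, lay TNRC6C-AS1 at 2.02 TPM, TSPEAR-AS1 at 2.03 TPM and HOXC-AS1 at 2.04 TPM. Just outside lay ATE1-AS1 at 1.99 TPM and C1RL-AS1 at 1.96 TPM.

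The libraries came from Huh7, a human hepatocyte-derived carcinoma line, labelled untreated in every case. A pair of libraries carried a short hairpin RNA against NUP210 (shNUP210), which encodes a membrane glycoprotein of the nuclear pore, and a pair carried a control hairpin (shCon). The labels name total RNA and the TruSeq RNA Sample Prep Kit, which does not mark strand. The labels give neither the hairpin sequences nor how many hairpins were used, and they do not say whether replicate libraries of a group stem from different cultures. The p-values below thus reflect library-to-library spread that could be technical.

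Many antisense genes start close to the start of their sense gene and are transcribed away from it, while others begin inside the gene and run across its exons. Antisense RNAs are often nuclear, spliced inefficiently and short-lived, since the nuclear exosome degrades much of the transcription that starts upstream of promoters. A few have well studied functions, such as scaffolding chromatin regulators, hosting small nucleolar RNAs or binding microRNAs.

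NUP210 itself stood at 10.1 and 9.85 TPM with its hairpin and at 32.8 and 27.3 TPM with the control hairpin. The groups did not overlap, and the log2 fold change was -1.49 (SE 0.231), with an adjusted p of 0.0652 from limma with Benjamini-Hochberg adjustment over 12851 genes, which missed the threshold of 0.05. With genes at 5 TPM or more in 2 libraries alone, the adjusted p was 0.0432. The hepatocyte-derived markers ALB, AFP, APOA1, APOB, TTR, SERPINA1 and HNF4A, 7 of 7 listed, summed to 12751 and 12990 TPM with shNUP210 and 16572 and 16109 TPM with shCon. They went both ways: APOA1 and SERPINA1 lay lower in both shNUP210 libraries, AFP, TTR and HNF4A higher, and ALB and APOB overlapped. Of the fibroblast markers 3 of 4 were listed, summing to 23.6 and 11.8 TPM against 3.28 and 6.62 TPM. Of the leukocyte markers 2 of 4 were listed, CD68 and LYZ, at 40.7 and 22.0 TPM in sum against 161 and 142 TPM. PTPRC, CD3E and the endothelial and other epithelial markers have no row in the tables. The part of these differences in the results below was not tested, and in bulk RNA fewer cells of a type and less RNA per cell cannot be told apart.

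The sequence of TAB3-AS2 is printed first because it is the member that passed the test and because it holds no base outside its sense gene. It lies at chrX:30854321-30854707 on the plus strand of GRCh38 (GENCODE 29), as 2 exons of 55 and 237 bases, and all 292 bases lie opposite coding exons of TAB3. The 12 capitals mark the junction of the exons, 6 bases on each side.
TAB3-AS2: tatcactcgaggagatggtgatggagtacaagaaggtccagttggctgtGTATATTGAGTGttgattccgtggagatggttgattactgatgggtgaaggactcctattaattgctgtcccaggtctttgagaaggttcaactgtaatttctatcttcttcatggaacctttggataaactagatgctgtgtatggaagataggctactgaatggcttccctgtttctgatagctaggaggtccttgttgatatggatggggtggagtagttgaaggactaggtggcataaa

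The start regions of 4 further members are shown because they stand for the kinds of antisense gene described below. They are a transcript inside its sense gene (MDC1-AS1) and one that starts near the start of its sense gene and overlaps its exons (TMPO-AS1). The others are one of a homeobox cluster (HOXD-AS1) and the most abundant member (FAM211A-AS1). Each window is 300 bases, 250 before and 50 after the RefSeq start, from GRCh38.p14, at chr6:30702817-30703116 on the plus strand, chr12:98516177-98516476 on the minus strand, chr2:176188909-176189208 on the minus strand and chr17:16438737-16439036 on the plus strand. Capitals mark matches, on either strand, to the TATA box TATAAA, the NF-Y motif CCAAT, the SP1 motif GGGCGG, the ETS motif CCGGAAG and the palindromic motif of NRF1, a factor of many CG-rich promoters.
MDC1-AS1: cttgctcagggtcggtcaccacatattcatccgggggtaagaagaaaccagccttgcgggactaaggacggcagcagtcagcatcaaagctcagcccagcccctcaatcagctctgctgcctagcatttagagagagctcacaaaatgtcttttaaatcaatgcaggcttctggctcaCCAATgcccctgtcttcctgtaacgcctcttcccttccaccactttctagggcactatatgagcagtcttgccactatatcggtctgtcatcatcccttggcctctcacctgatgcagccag
TMPO-AS1: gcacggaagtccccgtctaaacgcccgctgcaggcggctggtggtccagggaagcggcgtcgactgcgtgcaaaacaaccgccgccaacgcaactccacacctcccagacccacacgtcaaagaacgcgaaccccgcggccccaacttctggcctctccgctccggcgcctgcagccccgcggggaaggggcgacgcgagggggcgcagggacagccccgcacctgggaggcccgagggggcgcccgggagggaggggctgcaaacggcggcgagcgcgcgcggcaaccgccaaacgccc
HOXD-AS1: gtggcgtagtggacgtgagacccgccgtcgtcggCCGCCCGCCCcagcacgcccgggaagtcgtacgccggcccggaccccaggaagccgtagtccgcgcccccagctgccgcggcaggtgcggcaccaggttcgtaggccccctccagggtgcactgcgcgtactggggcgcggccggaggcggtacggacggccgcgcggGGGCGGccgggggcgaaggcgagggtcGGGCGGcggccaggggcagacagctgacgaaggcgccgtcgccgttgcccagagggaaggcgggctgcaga
FAM211A-AS1: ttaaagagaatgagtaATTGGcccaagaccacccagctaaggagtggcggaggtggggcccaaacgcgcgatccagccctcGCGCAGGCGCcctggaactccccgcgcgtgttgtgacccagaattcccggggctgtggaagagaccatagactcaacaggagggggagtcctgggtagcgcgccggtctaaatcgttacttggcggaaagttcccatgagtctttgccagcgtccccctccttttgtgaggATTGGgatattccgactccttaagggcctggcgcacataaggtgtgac

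The MDC1-AS1 window held 1 match to CCAAT, the HOXD-AS1 window 4 to GGGCGG, overlapping ones included, the FAM211A-AS1 window 2 to CCAAT and 1 to the NRF1 motif, and the TMPO-AS1 window none of the 5 motifs. RefSeq start windows were matched for 135 members, giving 173 windows. CCAAT was in 38.7% of these against 34.6% of all 35116 windows, GGGCGG in 50.9% against 45.0%, and TATAAA in 9.83% against 11.5%. CCGGAAG was in 16.2% against 10.3%, and the NRF1 motif in 11.6% against 5.78%. The median window of a member held 23 CG dinucleotides and 63.3% G and C, against 14 and 58.7% over all windows. A member's window can also be its sense gene's, as where both start within 1000 bases.

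In GENCODE 29, which holds 189 of the 195 members, 140 are annotated as antisense, 26 as processed transcripts and 12 as lincRNAs. The others are 1 bidirectional promoter RNA, 4 transcribed pseudogenes and 6 genes now annotated as protein-coding. These 6 are RPA3-AS1 (now UMAD1), MMP24-AS1 (MMP24OS), CEBPZ-AS1 (CEBPZOS), TOPORS-AS1 (SMIM27), SPTY2D1-AS1 (MISFA) and NCBP2-AS2 (NCBP2AS2), so the suffix does not always mark a noncoding RNA. A current symbol was found for 188 members. It differed from the files' symbol for 30, and for 13 it ended in -DT, the suffix for divergent transcripts. One such member is IL10RB-AS1, now IL10RB-DT.

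Most members shared exonic bases with another listed gene. Of the 189, 23 had no overlap with the exons of another listed gene, 37 had at least 50% of their exonic length overlapped, and 5 were overlapped entirely. Because the kit does not mark strand, fragments from such stretches cannot be assigned to a strand, and a value of an overlapped member may include sense reads. This holds for every overlapped member named below. Besides TAB3-AS2, IL10RB-AS1, MDC1-AS1 and SMARCA5-AS1, whose overlap is given with their values, it touches ARMCX3-AS1 over 93.9% of its exonic length, CERS6-AS1 over 69.7%, LIMD1-AS1 over 67.1%, NAV2-AS2 over 65.7% and TNRC6C-AS1 over 63.2%. HOXA10-AS is overlapped over 62.3%, A1BG-AS1 over 57.6% and TTN-AS1 over 55.4%.

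The antisense members together took a larger share of the TPM in both shNUP210 libraries. They summed to 5123 and 5357 TPM with shNUP210 and 4384 and 4228 TPM with shCon, or 0.512% and 0.536% against 0.438% and 0.423% of each library. Without FAM211A-AS1, the most abundant one, the sums were 4471 and 4794 TPM against 3564 and 3472 TPM, so the groups were again apart. TPM are scaled to a fixed total, and 68.6% of all tested genes had a positive log2 fold change, with a median of 0.24. Genes at 1 TPM or more were also more numerous with shNUP210, at 14564 and 14405 against 13920 and 13675. Whether the larger share goes beyond this general shift was not tested. The 10 most abundant members held 44.9%, 42.6%, 49.7% and 49.8% of the sum in shNUP210 1, shNUP210 2, shCon 1 and shCon 2. All 4 libraries reached 2 TPM for 120 members. Both shNUP210 libraries and 1 shCon library did for 29, 1 shNUP210 and both shCon libraries for 8, both shNUP210 libraries alone for 9, both shCon libraries alone for 7, and 1 of each for 22.

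Few antisense members passed the test, in which the targeted gene NUP210 also missed the threshold with 2 libraries per group. In limma on log2(TPM + 1), 1 of 195 passed an adjusted p of 0.05, TAB3-AS2, which was lower and had entered the test through the shCon libraries alone. Over all 12851 tested genes 131 passed, or 1.02%, with 0.560% higher and 0.459% lower. At an unadjusted p under 0.05, 41 members were higher and 10 lower, beside 16.2% and 5.21% of all tested genes. Among these are some of the 9 and 7 members that reached 2 TPM in the libraries of 1 group alone. The shNUP210 libraries lay above both shCon libraries for 80 members, or 41.0%, the same share as the 41.0% of all tested genes, and below both for 22, or 11.3%, beside 13.6%. The 80 and 22 include all of those 9 and 7 members, whose groups had to be apart. The median log2 fold change was 0.33 over the members and 0.24 over all tested genes. Over the 120 members at 2 TPM in all 4 libraries it was 0.36, and over 36 genes with LINC symbols, named long intergenic RNAs, 0.22, with 0 called in the latter and 3 higher and 2 lower at an unadjusted p under 0.05. The log2(TPM + 1) scale understates the changes of low genes.

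The position of the median depends on the scaling. Trimmed-mean, median-ratio, upper-quartile and quantile scaling moved the median of all genes from 0.24 to between 0.0063 and 0.044, and that of the members to between 0.069 and 0.155. The members' median thus lay 0.093 above that of all genes in TPM as deposited and 0.062 to 0.118 above it after scaling. The split of called genes moved as well, from 72 higher and 59 lower to 53 higher and 179 lower with trimmed-mean scaling. TAB3-AS2 was the called member in each of these scalings.

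Read by level, the number of members that lay higher in both shNUP210 libraries was 19 of 83 with a mean under 5 TPM, 34 of 68 between 5 and 20 TPM, 20 of 33 between 20 and 100 TPM and 7 of the 11 at 100 TPM or more. For all tested genes the shares were 34.8%, 42.4%, 45.1% and 38.8%. In the same order, 9, 11, 1 and 1 members lay lower, or 10.8%, 16.2%, 3.03% and 9.09%. The shares of all tested genes that lay lower were 10.7%, 10.8%, 13.4% and 29.4%. At 20 to 100 TPM, 20 members lay higher and 1 lower, with a median log2 fold change of 0.41, where all tested genes had a median of 0.23. At 100 TPM or more, 7 lay higher and 1 lower, with a median of 0.40, where the median of all 1432 tested genes of that level was 0.049. The difference between members and other genes of a level was not tested. Libraries of a group differed most for members under 5 TPM. In order of rising level, the members' median difference between the 2 shCon libraries was 0.761, 0.448, 0.213 and 0.114 on the log2 scale. Between the 2 shNUP210 libraries it was 0.738, 0.274, 0.481 and 0.204, so it did not fall steadily. At 20 to 100 TPM this 0.481 was larger than the members' median log2 fold change of 0.41. For all tested genes of that level the shNUP210 difference was 0.229.

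**Figure D1:**
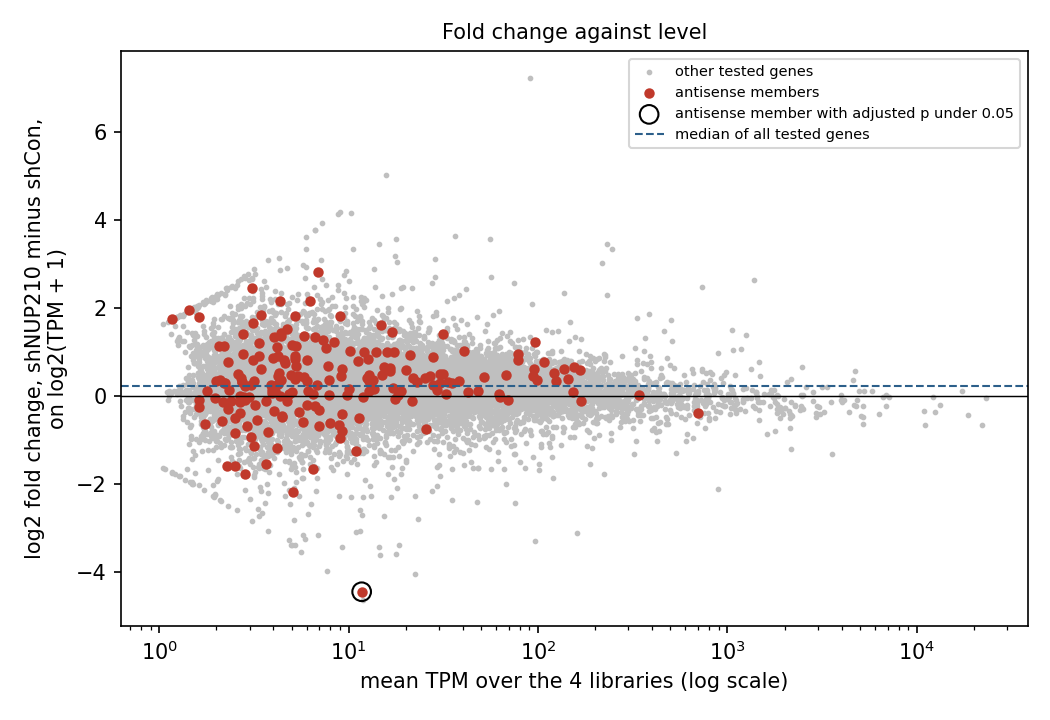
Log2 fold change (shNUP210 minus shCon, on log2(TPM + 1)) against mean TPM over the 4 libraries (log axis) for 12851 tested genes (grey) and the 195 antisense members (red); each point is a gene, and the dashed line is the median of all tested genes at 0.24. The single circled member, TAB3-AS2, lies at -4.45, and the members of 100 TPM or more, apart from FAM211A-AS1, lie near or above the line of 0.

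TAB3-AS2 is antisense to TAB3, which encodes an adaptor of the TAK1 kinase in inflammatory signalling. It was listed at 0 TPM in both shNUP210 libraries and at 34.4 and 12.4 TPM in the shCon libraries. It passed the 2 TPM filter through the shCon libraries alone, so the groups had to be apart for it and the direction was set by the rule. The fitted log2 difference was -4.45 (SE 0.566, limma adjusted p = 0.0478), a value that depends on the pseudocount and is no bound: it was -5.41 with a pseudocount of 0.5, -3.52 with 2, and -3.75 or -5.15 without 1 or the other shCon library. TAB3 was at 14.2 and 5.36 TPM with shNUP210 and 7.35 and 7.13 TPM with shCon, so its groups overlapped. The transcript is barely longer than a sequenced fragment, so each fragment weighs heavily in its TPM. Among the 18 genes with 1 transcript within a few bases of that length, the lowest value above 0 was 11.1 TPM in shCon 1 and 11.97 TPM in shCon 2. TAB3-AS2 stood at 3.11 and 1.04 times those, about 3 fragments and 1 fragment. The call was lost without a filter (adjusted p = 0.129), at a 1 TPM filter (0.0605), with a pseudocount of 2 (0.0556), with no mean-variance trend (0.117), with a replicate block (0.0925) and without any 1 of the 4 libraries (0.234 to 0.337).

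**Figure D2:**
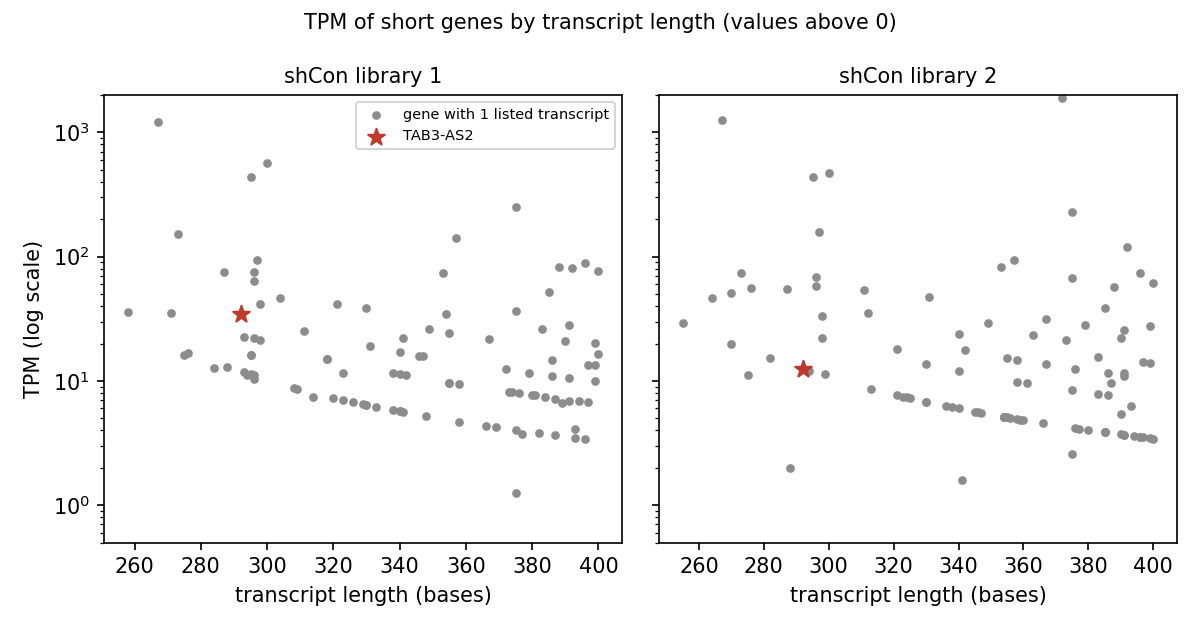
TPM (log axis) against transcript length in bases for short genes with 1 listed transcript and a value above 0, in each shCon library; the star is TAB3-AS2. The lower edge of the points, where a gene rests on about 1 fragment, falls with length, and TAB3-AS2 at 292 bases lies at 3.11 times the lowest value of its length in shCon 1 and 1.04 times in shCon 2.

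The same steps were used to estimate how many fragments lay behind the other members with 1 listed transcript. A value at 1 kb of effective length was worth 0.538, 0.590, 0.458 and 0.462 TPM per fragment in shNUP210 1, shNUP210 2, shCon 1 and shCon 2. A fragment was thus worth more in both shNUP210 libraries, and equal fragment numbers mean a higher TPM there. Between 89.2% and 91.6% of low values then fell within 0.05 of a whole number, where an even spread would give 10%. The step and a length offset were chosen in each library to make this share as high as possible. The share thus describes the fit and is no separate check, and low values of the members were among those fitted. For 47 members the estimate could be made, and 83.0% of their 188 values were within 0.1 of a whole number. The median member rested on 9.07, 6.96, 9.98 and 10 fragments in the 4 libraries, 17 members had under 10 in every library, and 18 had 10 or more in every library.

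FOXN3-AS1, inside the body of the forkhead repressor gene FOXN3 with no exon shared, shows what this means. It was at 1.33 and 1.44 TPM with shNUP210 and 5.62 and 6.28 TPM with shCon, about 2 and 2 fragments against 10 and 11. It passed the filter through the shCon libraries alone, so the groups had to be apart and the direction was set by the rule. The adjusted p from limma was 0.122. PRRT3-AS1 was at 0 and 3.32 TPM against 10.4 and 6.65 TPM, about 0 and 2 fragments against 8 and 5. TRAPPC12-AS1 lay higher, at 11.8 and 5.45 TPM against 0.71 and 2.88 TPM, about 14 and 6 fragments against 1 and 4.

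**Figure D3:**
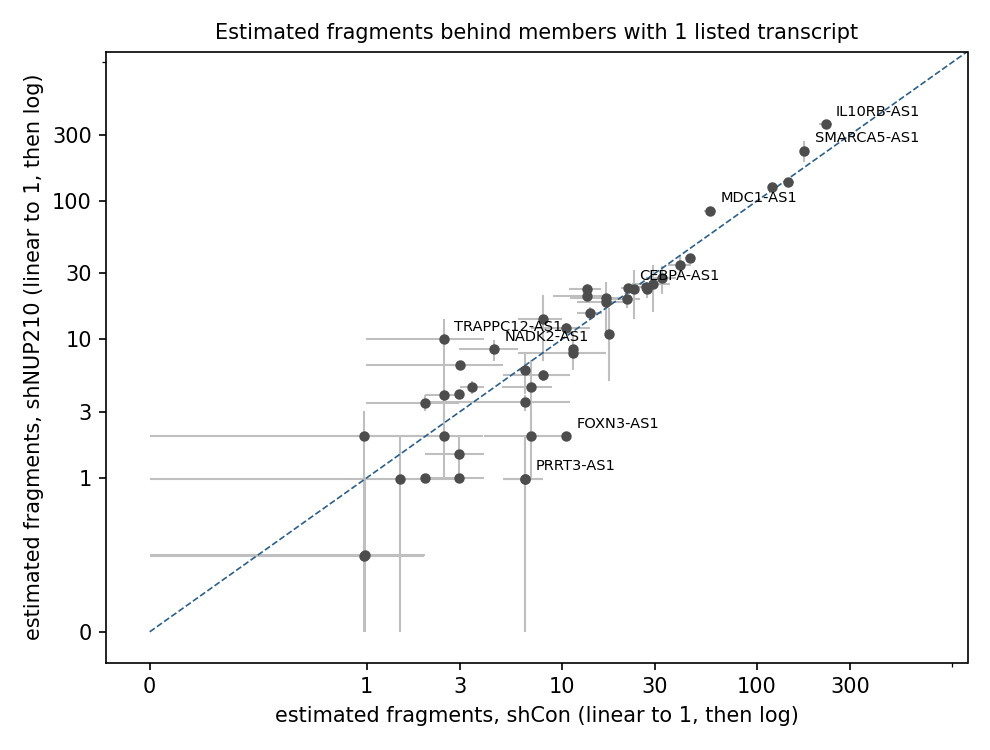
Estimated fragments in shNUP210 against shCon libraries (both axes linear to 1 and log above) for 47 antisense members with 1 listed transcript; points are means of 2 libraries, bars run from the lower to the higher library, and the dashed line marks equal numbers. IL10RB-AS1 and SMARCA5-AS1 lie at the upper right with 168 fragments or more in every library, while the FOXN3-AS1 means rest on about 2 and 2 against 10 and 11.

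IL10RB-AS1, MDC1-AS1 and PRC1-AS1 were singled out after their values were seen. IL10RB-AS1 starts 98 bases from IL10RB, a chain of the interleukin-10 receptor, on the opposite strand, and 80.9% of its exonic length lies opposite exons of IFNAR2, a chain of the type I interferon receptor. It was at 96.4 and 110 TPM with shNUP210 and 48.4 and 57.1 TPM with shCon, or about 352 and 366 against 208 and 242 fragments. Both shNUP210 libraries were higher, with a log2 fold change of 0.96 (SE 0.158, adjusted p = 0.0698). IL10RB was at 1.54 and 0.69 TPM against 4.57 and 1.70 TPM, and IFNAR2 at 16.7 and 20.3 TPM against 12.5 and 6.05 TPM.

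MDC1-AS1 lies within MDC1, which encodes a mediator of the DNA damage checkpoint, and MDC1 exons cover 701 of its 738 bases. It was at 102 and 99.7 TPM with shNUP210 and 59.6 and 53.0 TPM with shCon (log2 fold change 0.83, SE 0.137, adjusted p = 0.0698). MDC1 was at 18.4 and 25.6 TPM against 13.7 and 14.0 TPM, so both were higher in each shNUP210 library. When genes were required to reach 5 TPM in 2 libraries, which left 125 members among 10140 genes, both of these antisense RNAs passed, IL10RB-AS1 at an adjusted p of 0.0488 and MDC1-AS1 at 0.0496. With TAB3-AS2 that made 3 of 125, where 2.86% of all tested genes passed, 1.79% higher and 1.07% lower. At that filter 33 members were higher and 7 lower at an unadjusted p under 0.05, beside 18.4% and 5.95% of all tested genes.

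PRC1-AS1 and its sense gene PRC1, a microtubule bundler of cytokinesis, lay higher together. The antisense RNA was at 111 and 159 TPM against 70.3 and 44.1 TPM (adjusted p = 0.111), and PRC1 at 112 and 97.2 TPM against 57.3 and 39.1 TPM (adjusted p = 0.0919). The groups were apart for both, and PRC1 exons cover 22.6% of the antisense exonic length.

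The 10 highest log2 fold changes, among members with a mean of at least 5 TPM in the higher group, ran from 1.53 to 2.82, and none passed the test. RSBN1L-AS1, now named APTR, starts 178 bases from RSBN1L on the opposite strand and shares no exon with another listed gene. It was at 8.27 and 17.4 TPM with shNUP210 and 1.72 and 0.26 TPM with shCon (adjusted p = 0.0967), and RSBN1L at 2.69 and 3.32 TPM against 1.19 and 1.35 TPM. TM4SF19-AS1 was at 9.13 and 2.87 TPM against 0.29 and 0 TPM, and ASMTL-AS1 at 12.1 and 8.03 TPM against 0 and 4.84 TPM. CIRBP-AS1, opposite the gene of a cold-inducible RNA-binding protein, was at 9 and 5.84 TPM against 0 and 2.46 TPM, while CIRBP was at 72.6 and 65.1 TPM against 39.8 and 53.9 TPM.

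TTN-AS1, a many-exon transcript across the titin gene, was at 14.9 and 31.8 TPM against 6.14 and 6.72 TPM, with TTN itself at 1.28 TPM or less in every library. EPB41L4A-AS1 was at 22.8 and 7.25 TPM against 2.93 and 2.97 TPM, and its sense gene EPB41L4A at 10.1 and 10.2 TPM against 7.2 and 5.63 TPM. CD27-AS1 was at 6.12 and 9.01 TPM against 2.01 and 1.85 TPM, with no CD27 row listed. DHRS4-AS1, opposite a short-chain dehydrogenase gene, is listed for 2 genes. The one among the highest 10, ENSG00000215256, was at 3.40 and 7.27 TPM against 1.27 and 0.59 TPM, while the more abundant one, ENSG00000197775, was at 11.96 and 11.8 TPM against 11.04 and 13.1 TPM, and its groups overlapped. In all 10, including TRAPPC12-AS1 and HOXA10-AS, both shNUP210 libraries lay above both shCon libraries, a gap that the choice by fold change favours. RSBN1L-AS1, TM4SF19-AS1, HOXA10-AS and the DHRS4-AS1 among the 10 passed the filter through the shNUP210 libraries alone, so their direction was set by the rule.

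**Figure D4:**
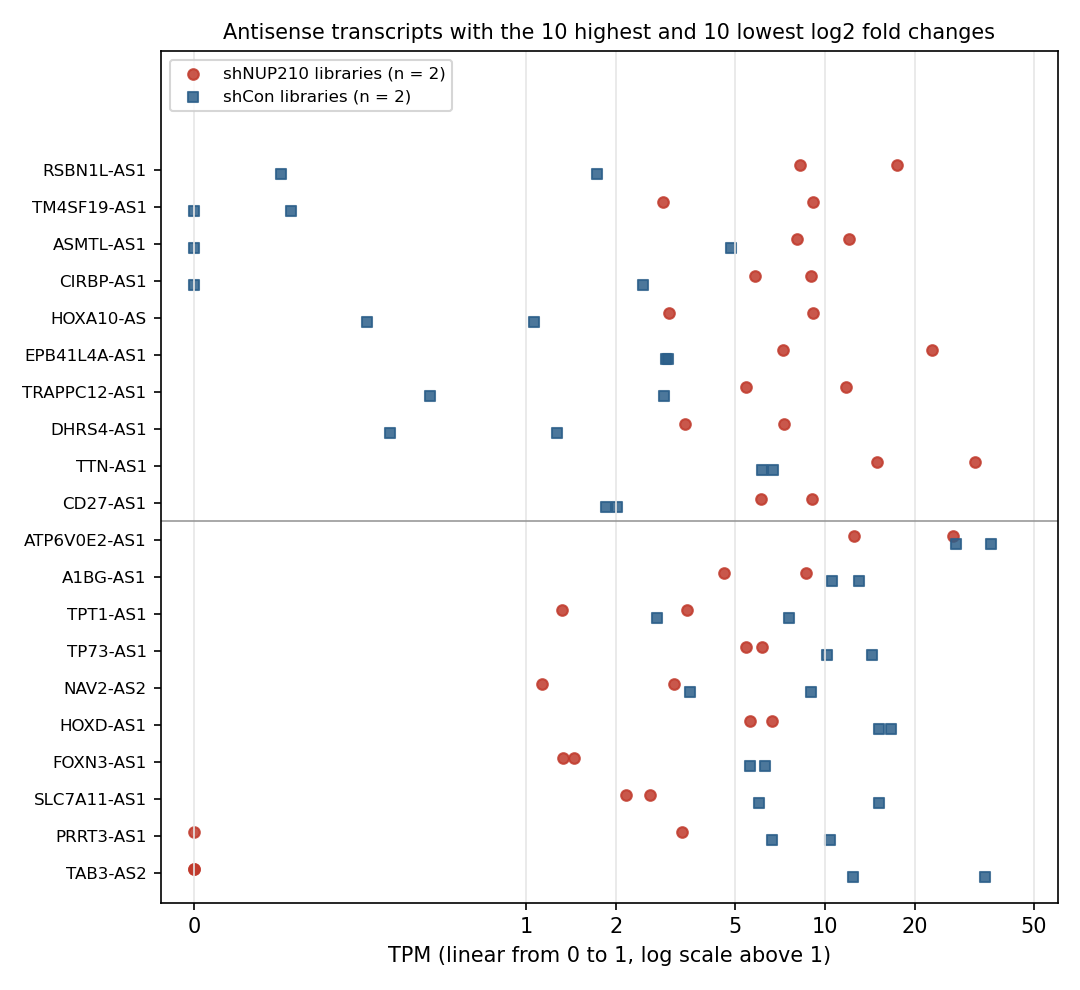
TPM in each library (linear from 0 to 1, log above) for the antisense members with the 10 highest and 10 lowest log2 fold changes. The choice was among members with a mean of at least 5 TPM in the higher group. Red circles are the 2 shNUP210 libraries and blue squares the 2 shCon libraries. TAB3-AS2 lies at 0 in both shNUP210 libraries, and several rows, such as EPB41L4A-AS1 at 22.8 and 7.25 TPM, differ widely within a group.

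The 10 lowest log2 fold changes, again among members with a mean of at least 5 TPM in the higher group, ran from -0.74 to -4.45. TAB3-AS2 was the single one that passed. Some rarer members outside this limit had lower values than -0.74, such as OR2A1-AS1 at -1.76 and RPA3-AS1 at -1.59. SLC7A11-AS1, opposite the gene of the cystine and glutamate exchanger, was at 2.16 and 2.60 TPM against 15.1 and 6 TPM (adjusted p = 0.164), while SLC7A11 was at 1.02 and 0.13 TPM against 1.02 and 1.76 TPM. TP73-AS1 was at 6.17 and 5.45 TPM against 14.3 and 10.1 TPM, and TP73, of the p53 family, at 0.82 TPM or less throughout. NAV2-AS2 was at 3.13 and 1.13 TPM against 3.52 and 8.97 TPM, about 3 fragments and 1 against 4 and 10. These members lay lower in both shNUP210 libraries.

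A1BG-AS1 lay lower together with A1BG, a plasma protein gene made by liver. The antisense RNA was at 8.62 and 4.60 TPM against 13.0 and 10.5 TPM, and A1BG at 62.6 and 40.5 TPM against 156 and 218 TPM (log2 fold change -1.85, adjusted p = 0.0580). ATP6V0E2-AS1, opposite a proton pump subunit gene, was at 26.8 and 12.5 TPM against 27.5 and 35.9 TPM, so shNUP210 1 lay close to shCon 1. TPT1-AS1 was at 1.32 and 3.44 TPM against 2.74 and 7.55 TPM, and its groups overlapped, while TPT1, encoding a translationally controlled tumour protein, stood at 1962 and 1922 TPM against 2040 and 2056 TPM.

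Antisense RNAs of the homeobox clusters differed in direction. HOXD-AS1, now HAGLR, has exons opposite those of HOXD1 and HOXD3. It was at 6.63 and 5.62 TPM with shNUP210 and 16.6 and 15.1 TPM with shCon, and the groups were well apart (log2 fold change -1.25, SE 0.278, adjusted p = 0.106). HOXD1, opposite 158 of its bases, was at 1.22 and 0.33 TPM against 4.66 and 3.94 TPM. In the HOXA cluster, HOXA10-AS was at 3.01 and 9.12 TPM against 1.06 and 0.52 TPM, and HOXA-AS2 at 17.4 and 19.9 TPM against 6.72 and 11.5 TPM. The direction of HOXA10-AS was set by the rule, as stated above. In the HOXC cluster, HOXC-AS2 was at 8.86 and 6.44 TPM against 3 and 2.79 TPM, and HOXC-AS1 at 1.91 and 2.04 TPM against 4.8 and 0 TPM. None of these 5 passed, and those other than HOXD-AS1, HOXA10-AS and HOXC-AS1 were picked for their cluster after their values were seen.

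The 10 most abundant members had mean levels between 122 and 698 TPM. FAM211A-AS1, now SNHG29, is a host gene of small nucleolar RNAs. It was at 652 and 563 TPM with shNUP210 and 820 and 756 TPM with shCon, lower in both shNUP210 libraries (log2 fold change -0.38, SE 0.102, adjusted p = 0.136). Exons of FAM211A face 452 of its 3759 exonic bases, and FAM211A was at 207 and 217 TPM against 212 and 227 TPM. DNAJC9-AS1, opposite a histone co-chaperone gene, was at 347 and 338 TPM against 347 and 329 TPM. DNAJC9 was at 17.5 and 16.1 TPM against 19.9 and 10.8 TPM, so here the antisense RNA was listed far above its sense gene. Exons of MRPS16 face more of DNAJC9-AS1 than those of DNAJC9, 395 bases or 12.1% of its exonic length. MRPS16 was at 93.5 and 107 TPM with shNUP210 and 108 and 81.0 TPM with shCon.

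CERS6-AS1, opposite a ceramide synthase gene, was at 193 and 208 TPM against 139 and 128 TPM (log2 fold change 0.58, SE 0.111, adjusted p = 0.0882), with CERS6 at 9.25 and 9.12 TPM against 8.82 and 6.68 TPM. LIMD1-AS1 was at 152 and 137 TPM against 101 and 98.8 TPM, and STARD7-AS1, opposite a phosphatidylcholine transfer protein gene, at 178 and 155 TPM against 117 and 101 TPM. EAF1-AS1 was at 147 and 131 TPM against 105 and 115 TPM, and RUSC1-AS1 at 145 and 183 TPM against 118 and 129 TPM. With SMARCA5-AS1, described below, these lay higher in both shNUP210 libraries and none passed. GLYCTK-AS1 was at 131 and 193 TPM against 168 and 178 TPM and PRMT5-AS1, opposite an arginine methyltransferase gene, at 142 and 175 TPM against 142 and 153 TPM, so both overlapped. RUSC1-AS1 also faces exons of FDPS, over 19.7% of its exonic length. FDPS was at 355 and 355 TPM with shNUP210 and 407 and 420 TPM with shCon.

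Of 29 antisense RNAs listed for their published functional work, 16 had a row and 12 were members. None of them passed the test. TMPO-AS1 faces TMPO, which encodes the lamina-associated LAP2 proteins. The pair start 910 bases apart on opposite strands, and TMPO exons lie opposite 713 bases, or 21.2%, of the antisense exonic length. TMPO-AS1 was at 112 and 119 TPM against 79.6 and 70.6 TPM (limma adjusted p = 0.1004), with TMPO at 90.5 and 103 TPM against 81.5 and 63.5 TPM. PXN-AS1, opposite the focal adhesion gene PXN, was at 129 and 143 TPM against 88.0 and 69.9 TPM (adjusted p = 0.0957), with PXN at 41.0 and 35.0 TPM against 25.1 and 22.1 TPM. Antisense and sense lay higher together in both of these pairs.

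KDM4A-AS1, opposite a histone demethylase gene, was at 32.8 and 23.6 TPM against 14.3 and 13.8 TPM, while KDM4A was at 6.92 and 8.67 TPM against 8.83 and 5.74 TPM. FGD5-AS1 was at 41.3 and 36.3 TPM against 33.0 and 29.8 TPM, with FGD5 at 0.45 TPM in shCon 1 and 0 in the other libraries. MCM3AP-AS1, opposite an mRNA export factor gene, was at 11.6 and 17.2 TPM against 11.6 and 9.29 TPM. MAPKAPK5-AS1 was at 37.7 and 36.3 TPM against 34.3 and 25.3 TPM. In these, the shNUP210 libraries lay above the shCon ones, by little in the latter pair.

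OIP5-AS1, known as Cyrano, was at 83.4 and 140 TPM against 68.4 and 104 TPM, and EGFR-AS1 at 4.67 and 3.93 TPM against 3.24 and 4.56 TPM, so their groups overlapped. ZEB1-AS1 was at 0.24 and 3.75 TPM against 4.25 and 4.47 TPM, with ZEB1, a repressor of epithelial genes, at 6.27 and 6.06 TPM against 2.08 and 6.73 TPM. The gap for ZEB1-AS1 lay mostly in shNUP210 1.

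For 187 members the sense gene was listed, as 184 genes. Exons overlapped on opposite strands in 152 of these pairs, 18 were divergent with starts within 1000 bases and no shared exon, 11 overlapped in their gene bodies alone, and 6 were not in the annotation. Antisense and sense fold changes had the same sign in 133 pairs, or 71.1%. Both were positive in 107 pairs and both negative in 26, in data where 68.6% of all tested genes had a positive fold change. Measured from the all-gene median, 114 pairs, or 61.0%, lay on the same side. In the 29 pairs whose exons do not overlap, 19 had the same sign, or 65.5%, and in the 18 divergent pairs 11, or 61.1%. Across the 187 pairs, Pearson's r of the fold changes was 0.239 and Spearman's rho 0.303, as a description, since the pairs share libraries and, where exons overlap, reads. Over the 98 pairs with both genes at 2 TPM in all 4 libraries, r was 0.427.

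**Figure D5:**
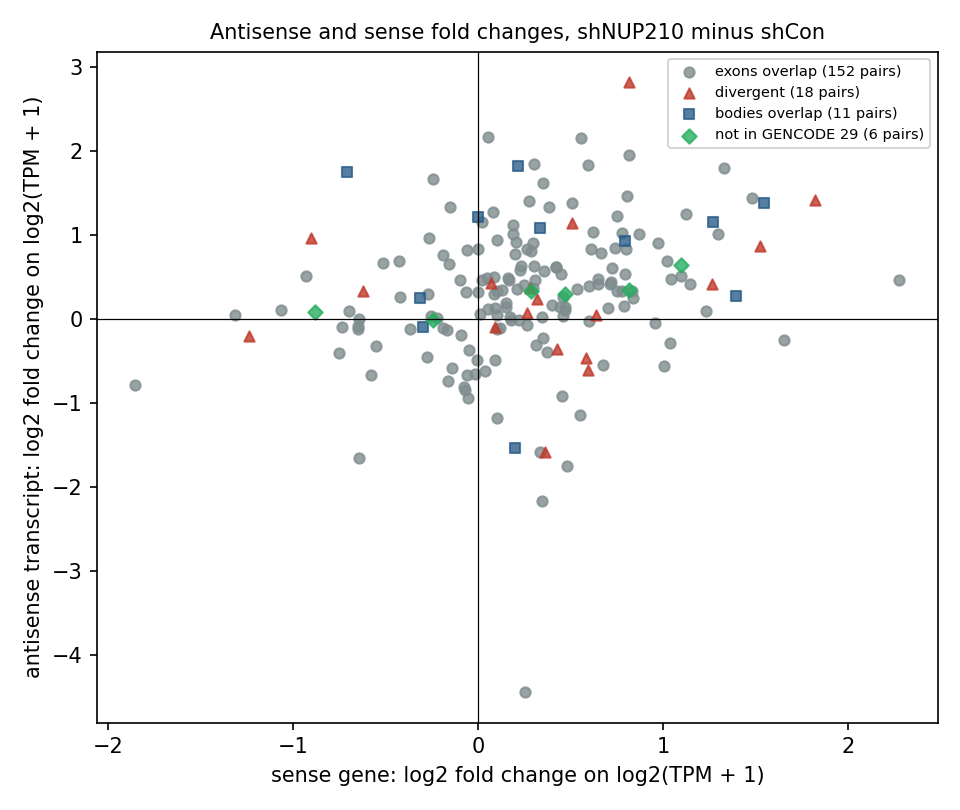
Log2 fold change of each antisense member against that of its sense gene, both shNUP210 minus shCon on log2(TPM + 1), for 187 pairs; symbols give the arrangement in GENCODE 29. Of these, 107 lie in the upper right quadrant and 26 in the lower left, and TAB3-AS2 is the point at -4.45.

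Per length, the antisense RNA was listed above its sense gene in all 4 libraries in 54 pairs and below it in 90. The median level was 6.23 TPM for antisense and 11.6 TPM for sense genes over the pairs. Every member had to reach 2 TPM in 2 libraries, while the sense genes had no such floor and reached it in 169 of the 187 pairs. These counts and medians thus depend on the rule, and where exons overlap, on shared reads. In the 29 pairs without shared exons, 2 had the antisense RNA above and 17 below, and the medians were 4.22 TPM and 15.3 TPM. Of 166 sense genes that passed the filter, 1 was called, and their median log2 fold change was 0.27.

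The called sense gene was CEBPA, a transcription factor of liver and fat cells. CEBPA fell from 528 and 515 TPM in the shCon libraries to 346 and 331 TPM (log2 fold change -0.62, SE 0.0814, adjusted p = 0.0497). CEBPA-AS1, now CEBPA-DT, starts 293 bases away on the opposite strand and shares no exon with it. It was at 6.97 and 6.69 TPM with shNUP210 and 5.67 and 4.79 TPM with shCon, about 25 and 22 fragments against 24 and 20, with a log2 fold change of 0.33 (SE 0.325, adjusted p = 0.591). The antisense RNA thus stood slightly above the control and the sense gene below it. The CEBPA call was lost without a filter, at 1 TPM, with a pseudocount of 0.5, with no trend, with the block and without any 1 library. With the 5 TPM filter 5 of 140 sense genes passed, beside 2.86% of all tested genes, CEBPA and A1BG as lower and VCAN, TAPT1 and NDUFA6 as higher.

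The following pairs were singled out after their values were seen. Of all tested genes, 41.0% lay higher in both shNUP210 libraries and 13.6% lower. These are shares of single genes and cannot be set directly against counts of pairs. No share for pairs of other genes was computed, and nothing particular to pairs was tested. In 43 pairs antisense and sense were both higher in each shNUP210 library, and in 3 both were lower, A1BG-AS1, H1FX-AS1 and LBX2-AS1. The 43 include RSBN1L-AS1, LRP4-AS1, LEF1-AS1 and SAP30L-AS1, which passed the filter through the shNUP210 libraries alone. H1FX, a linker histone gene, was at 65.6 and 61.5 TPM against 109 and 106 TPM, with H1FX-AS1 at 7.45 and 8.06 TPM against 8.98 and 12.5 TPM. LBX2-AS1 was at 4.75 and 5.17 TPM against 12.1 and 5.86 TPM.

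In 5 pairs the antisense RNA lay higher and its sense gene lower: CEBPA-AS1, IL10RB-AS1, MYCBP2-AS1, PRR7-AS1 and SMARCA5-AS1. SMARCA5-AS1 starts 1172 bases from SMARCA5, which encodes a chromatin remodelling ATPase, and its exons face SMARCA5 over 66.7% of their length. It was at 214 and 165 TPM against 122 and 115 TPM, while SMARCA5 was at 14.2 and 14.2 TPM against 21.2 and 20.2 TPM. MYCBP2-AS1 was at 34.2 and 37.1 TPM against 30.2 and 20.3 TPM, and MYCBP2, a large ubiquitin ligase gene, at 4 and 6.5 TPM against 10.8 and 10.5 TPM. PRR7-AS1 was at 2.28 and 2.42 TPM against 0 and 0 TPM, and PRR7 at 11.1 and 14.4 TPM against 22.4 and 20.3 TPM. PRR7-AS1 passed the filter through the shNUP210 libraries alone, so its direction was set by the rule.

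In 4 pairs the antisense member lay lower and its sense gene higher: ARMCX3-AS1, OR2A1-AS1, PRRT3-AS1 and RPA3-AS1. ARMCX3-AS1 rested on about 1 fragment in each shNUP210 library and 2 in each shCon library. RPA3-AS1, the protein-coding UMAD1, was at 0.58 and 0.95 TPM against 4.22 and 4.32 TPM, while RPA3, a subunit of the single-strand DNA binding complex, was at 50.9 and 42.0 TPM against 39.6 and 33.5 TPM. RPA3-AS1 and OR2A1-AS1 passed the filter through the shCon libraries alone, so their direction was set by the rule. None of the antisense members of these 4 pairs passed the test.

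The machinery that shortens and removes antisense RNA was also measured, in a list of 42 genes of RNA decay and termination. It covers the nuclear exosome, its adaptors, the Integrator complex and early termination, and also holds UPF1 and XRN1, which belong to none of these groups. All 42 were listed and 40 tested, and 0 were called by limma. At an unadjusted p under 0.05, 7 were higher, UPF1 among them, and 1 lower, beside 16.2% and 5.21% of all tested genes. The log2 fold changes of the 40 ran from -0.75 to 1.32 with a median of 0.33, beside 0.24 over all tested genes. The lowest adjusted p was that of EXOSC3, an exosome subunit, at 118 and 107 TPM against 73.1 and 67.7 TPM (log2 fold change 0.67, SE 0.132, adjusted p = 0.0908). Its level was higher in both shNUP210 libraries.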

How the data were processed

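Huh7 RNA-seq libraries, 2 with shNUP210 and 2 with shCon, were analysed from TPM values per gene, as deposited by the authors; the tools named in the submitters' processing notes are RSEM, STAR, Trimmomatic and DESeq, on hg38, while their versions, the annotation release and the strand setting are not given in the sources used here. TPM carries no read totals, so depth is not in the files, and the fragment numbers in the text are estimates from the spacing of low values. Members, gene lists and tests were chosen with earlier results of these data known. Genes at 2 TPM or more in 2 libraries (12851) were tested as log2(TPM + 1) in limma 3.58.1 (R 4.3.3), two-sided, with a mean-variance trend, without further scaling, and Benjamini-Hochberg adjustment over all tested genes at 0.05. The script was tested on simulated data. Overlaps came from GENCODE 29 on GRCh38, which holds 19460 of the 20226 listed genes by identifier. It may not be the authors' annotation, and no count test was run because the values are TPM. Promoter windows came from RefSeq (GRCh38.p14). Named members are NUP210, those called, the 10 highest and 10 lowest fold changes with a mean of at least 5 TPM in the higher group, the 10 most abundant, the studied list, the sense genes of these, called sense genes and the 3 nearest to the threshold on each side (1 of them is not reported here), plus those stated as chosen after their values were seen. With 2 libraries against 2, an exact permutation test of a single gene cannot go below p = 0.33, so none is given. Alternatives were other filters, pseudocounts, scalings, variance settings, a replicate block and leaving out each library.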

Additional observations from a re-analysis of the deposited data

How the results depend on the processing

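The deposited TPM carry no depth, the groups have 2 libraries, and few calls held under the other settings; in the ones below the cause was not tested. The number of genes called was 131 (72 higher, 59 lower). It was 14 (9 and 5) with no filter, 57 (30 and 27) with a filter of 1 TPM, 290 (181 and 109) with 5 TPM, 232 (53 and 179) with trimmed-mean, 229 (53 and 176) with median-ratio and 173 (46 and 127) with upper-quartile scaling, and 22 (13 and 9) with the replicate block. It was 0 with no mean-variance trend in limma (2551 at an unadjusted p under 0.05) and 0 to 0 without any 1 library, where the lone library is assumed to vary like the other group (1773 to 2120 at an unadjusted p under 0.05). Antisense members called were 0 with no filter, with 1 TPM, with a pseudocount of 2, with no trend and with the block, 3 with 5 TPM, and 0 to 0 without any 1 library. Called sense genes were 0 with no filter, with 1 TPM, with a pseudocount of 0.5, with no trend and with the block, and 0 to 0 without any 1 library. They were 2 with a mean of 2 TPM, 5 with 5 TPM and 3 with trimmed-mean, median-ratio or upper-quartile scaling.

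The members' median log2 fold change was 0.385 with 5 TPM, 0.370 with a pseudocount of 0.5 and 0.291 with 2, 0.124 with trimmed-mean, 0.129 with median-ratio, 0.155 with upper-quartile and 0.0694 with quantile scaling, and 0.281 to 0.431 without any 1 library. The sense genes' median was 0.0260, 0.0318, 0.0651 and 0.0551 under those 4 scalings and 0.242 to 0.335 without any 1 library. The share of pairs with the same direction was 61.0% measured from the all-gene median. The log2 fold change of NUP210 passed at -1.49 with 5 TPM, -1.74 with trimmed-mean, -1.73 with median-ratio, -1.70 with upper-quartile and -1.76 with quantile scaling. Same-numbered libraries correlated at 0.0064 in their deviations from the group means, so no shared deviation was seen. Whether they were prepared together cannot be told from this.

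Log2 fold changes changed sign as follows, from -0.24 to 0.25 in TPM as deposited except for ZEB1 (0.55) and OIP5-AS1 (0.36). In the order trimmed-mean, median-ratio, upper-quartile and quantile scaling, they were -0.243, -0.236, -0.2002 and -0.0423 for DNAJC9-AS1, -0.0880, -0.0828, -0.0543 and -0.189 for EGFR-AS1, -0.163, -0.157, -0.121 and -0.0068 for PRMT5-AS1, -0.197, -0.191, -0.157 and -0.222 for ASMTL, -0.0704, -0.0644, -0.0305 and -0.109 for DNAJC9, -0.0433, -0.0372, -0.0038 and -0.0886 for FOXN3, -0.125, -0.1195, -0.0877 and -0.210 for KDM4A, and -0.124, -0.118, -0.0870 and -0.212 for NAV2. OIP5 was at -0.0367, -0.0306 and -0.0708 and TRAPPC12 at -0.0384, -0.0322 and -0.0256 with trimmed-mean, median-ratio and quantile scaling. RUSC1 was at -0.0068 and -0.00049 with trimmed-mean and median-ratio, and CERS6 at -0.0037 and -0.0748 with trimmed-mean and quantile scaling. With quantile scaling, TAB3 was at -0.0525 and TPT1 at 0.129. The ranges without any 1 library were DNAJC9-AS1 -0.019 to 0.0563, EGFR-AS1 -0.0726 to 0.318, GLYCTK-AS1 -0.394 to 0.159, OIP5-AS1 -0.0159 to 0.728, PRMT5-AS1 -0.0531 to 0.248, DHRS4 -0.739 to 0.255, DNAJC9 -0.236 to 0.586, FAM211A -0.098 to 0.00209, FOXN3 -0.281 to 0.684, KDM4A -0.168 to 0.377, MAPKAPK5 -0.239 to 0.237, NAV2 -0.0831 to 0.289, OIP5 -0.35 to 0.77, TAB3 -0.373 to 0.883 and ZEB1 -0.11 to 1.22.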
